A study of Homo sapiens with 6 samples.

Results

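Haem is built from glycine, succinyl-CoA and iron in a short chain of enzymes that begins and ends in mitochondria and passes through the cytosol. The 9 genes described here are enzymes of that chain, with both forms of its first enzyme, and the receptor that brings iron into the cell. They are ALAS1, ALAS2, ALAD, UROS, UROD, CPOX, PPOX and FECH, and TFRC, which encodes transferrin receptor 1. They were found by symbol, 9 of the 68201 genes of the deposited count table, with no threshold on a measured value. Erythroid cells run this chain at a high rate to supply haemoglobin, and they depend on transferrin receptor 1 for iron. ALAS1 is the housekeeping form of 5-aminolevulinate synthase, and ALAS2 is its erythroid form. Iron controls ALAS2 and TFRC after transcription, through hairpins in their mRNAs called iron-responsive elements (IREs), which iron regulatory proteins bind when iron is scarce.

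The RNA came from K562, a human cell line of chronic myelogenous leukaemia with erythroid features, wild type and untreated. Whole cells (WC, 3 libraries) were compared with extracellular vesicles (EVs, 3 libraries), the membrane particles that these cells release into their medium. Per the study's methods the vesicles were collected from medium with vesicle-depleted serum and purified by size exclusion chromatography, and cells were sampled from the same cultures. The sample labels name foetal bovine serum for both groups and do not mention depletion, and this difference between the sources could not be settled here. The study thus concerns 1 cell line, and vesicles of all kinds that the column passes were pooled. Nanopore sequencing was run on amplified cDNA that had been primed at the poly(A) tail, so 1 read stands for 1 amplified cDNA molecule. In such bulk libraries, fewer vesicles that carry an RNA and less of it per vesicle cannot be told apart.

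Gene counts summed to between 2480560 and 3178211 in WC and between 560157 and 881338 in EV libraries, so a rare mRNA is measured less precisely in EVs. All 12 markers of K562 and erythroid identity had reads in both groups, with a summed level of 314 to 401 CPM (counts scaled to a common library size) in WC and 581 to 698 CPM in EVs. Marker lists of 5 other cell types, with 3 genes each, were not all near 0. The epithelial list summed to 57.3 to 93.8 CPM in WC and 22.9 to 47.6 CPM in EVs. The T cell list summed to 23.7 to 29.8 CPM in WC and 26.9 to 49.9 CPM in EVs. The B cell, monocyte and fibroblast lists summed to at most 4.38 CPM in a WC library and 4.48 CPM in an EV library. MS4A1, CD79A, COL1A2 and KRT5 had no read in any library. The 7 mitochondrial mRNAs summed to 7008 to 8012 CPM in WC and to 803 to 884 CPM in EVs. The nuclear RNAs MALAT1 and NEAT1 summed to 331 to 463 CPM in WC and to 395 to 705 CPM in EVs. The part of these differences in the results below was not tested.

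The IREs of ALAS2 and TFRC are shown because they set these 2 mRNAs apart from the other 7. The canonical mRNAs of the 9 genes were searched on their own strand for a hairpin of 27 nt with the loop CAGTGN, an upper stem of 5 base pairs, a bulged C, and a lower stem of 5 positions of which at least 4 pair. The sequences are read 5′ to 3′ from GRCh38 in the sense of the mRNA, both genes lying on the minus strand, and the capitals mark the 6 bases of the loop. ALAS2 has 1 element, in its 5′ UTR at chrX:55030942-55030968. In the 3′ UTR of TFRC the search found 4 elements, at chr3:196050980-196051006, chr3:196050576-196050602, chr3:196050511-196050537 and chr3:196050464-196050490. An element that departs from this form would be missed.
ALAS2 5′ UTR: tcgttcgtcctCAGTGCagggcaacag
TFRC 3′ UTR element 1: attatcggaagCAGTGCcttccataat
TFRC 3′ UTR element 2: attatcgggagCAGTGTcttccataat
TFRC 3′ UTR element 3: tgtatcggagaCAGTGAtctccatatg
TFRC 3′ UTR element 4: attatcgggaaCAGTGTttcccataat
The other 7 genes had no match of this form in their UTRs, which says only that these letters were not found. Over all protein-coding genes the form occurred in 6 of 17992 5′ UTRs (0.0333%) and in 11 of 19439 3′ UTRs (0.0566%). The elements lie far from the poly(A) tail at which cDNA synthesis began. The ALAS2 element ends 1904 bases before the end of the 1940 nt mRNA, and those of TFRC end 1180 to 1696 bases before the end of the 5012 nt mRNA.

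Of the 9 genes, 3 were higher in EVs, 3 were lower and 3 did not pass the test. CPOX, ALAS2 and UROD rose. ALAS1, ALAD and TFRC fell. UROS, PPOX and FECH did not pass. Genes were tested with edgeR's quasi-likelihood test on the counts, with the Benjamini-Hochberg adjustment over all 8716 genes that passed the expression filter, and a gene was called at an adjusted p under 0.05. Of those genes, 22.8% were called higher in EVs and 21.4% lower, and of the 6768 protein-coding ones 14.9% and 22.2%. All 9 genes passed the filter, CPOX only through its EV libraries, and ALAD and FECH only through their WC libraries. Such entry favours a higher call for CPOX and a lower call for ALAD and FECH. The counts of calls, of groups without overlap and of genes past the study's thresholds include these genes. The 3 EV values lay wholly above the 3 WC values for 3 of the 9 genes and wholly below for another 3, against 24.9% and 30.3% of all tested genes. The median log2 fold change (EV against WC) was 0.09 over the 9 genes and −0.13 over all tested genes. The thresholds that the study set for enrichment, a log2 fold change of at least 2 in size with an adjusted p of at most 0.01, were met by CPOX alone, where 4.53% of tested genes met them in EVs and 5.93% in WC. The p-values measure the spread between these libraries, which the study calls biological triplicates.

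**Figure D1:**
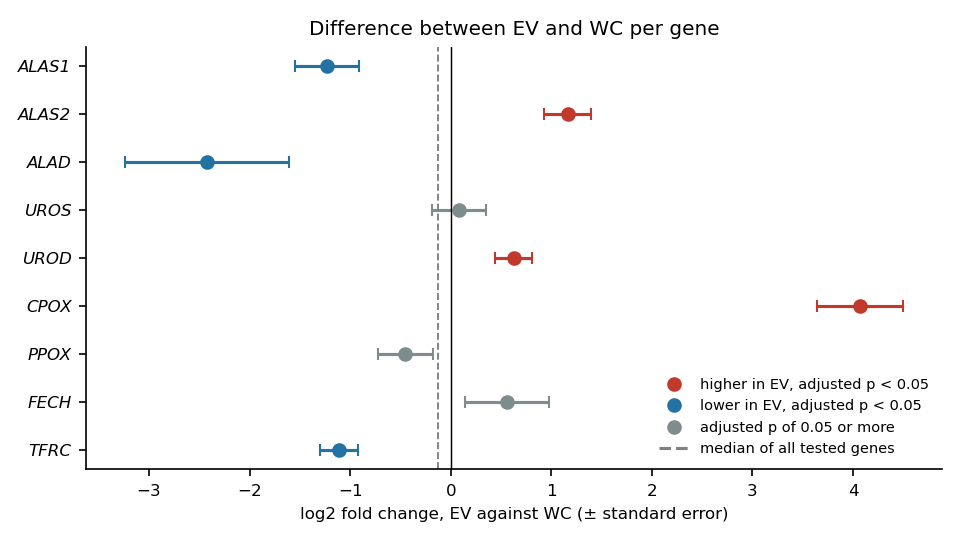
Log2 fold changes between EV and WC libraries for the 9 genes, with bars of 1 standard error (edgeR, 3 libraries in each group). CPOX stands at 4.07 and ALAD at −2.43, the other 7 genes lie between −1.23 and 1.16, and the sign for UROD, FECH and UROS turns when libraries are scaled by their totals alone.

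The first step of the chain, in mitochondria, joins glycine and succinyl-CoA and limits the rate of haem synthesis. Its 2 forms moved in opposite directions. ALAS1, the housekeeping form (chr3:52198086-52214327, plus strand), had 35.7, 41.5 and 27.1 CPM in WC replicates 1 to 3 and 12.1, 13.6 and 20.1 CPM in EV replicates 1 to 3, from 367 WC and 24 EV reads in all. The EV values all lay below the WC values, with means of 34.8 ± 7.27 and 15.3 ± 4.27 CPM (SD, n = 3 each). EVs differed from WC by −1.23 ± 0.32 (SE) on the log2 scale, a level 2.35-fold higher in WC, with an adjusted p of 0.0026 by edgeR's quasi-likelihood test.

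ALAS2, the erythroid form (chrX:55009055-55030977, minus strand), had 22.2, 19.5 and 20.2 CPM in WC and 51.1, 45.4 and 40.3 CPM in EVs. No EV value came near the WC values, and the spread within WC was small at 20.7 ± 1.40 CPM (SD, n = 3), against 45.6 ± 5.41 CPM in EVs. ALAS2 thus differed by 1.16 ± 0.23 (SE) on the log2 scale, or 2.24-fold, with an adjusted p of 2.3e-04 by edgeR. With scaling by library totals alone the log2 fold change was 0.53, with an adjusted p of 0.055, and the median of all tested genes moved from −0.13 to −0.77. The last 3 bases of ALAS2 overlap an exon of APEX2 on the opposite strand, and the strand setting of the counting is not given in the sources used here.

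A ratio of 2 genes within a library does not depend on how libraries are scaled. The ratio of ALAS2 to ALAS1 reads was 0.623, 0.470 and 0.747 in the WC libraries and 4.22, 3.33 and 2.00 in the EV libraries. ALAS1 reads thus outnumbered ALAS2 reads in every WC library, and ALAS2 reads outnumbered ALAS1 reads in every EV library. The mean log2 ratio rose from −0.73 ± 0.34 to 1.60 ± 0.55 (SD, n = 3), a difference of 2.34, with p = 0.1 in an exact two-sided permutation test. That is the smallest p that 3 against 3 libraries can give, and it was 0.3 after Benjamini-Hochberg adjustment over the 3 ratios tested. The ratios of UROD to UROS (exact permutation p = 0.3) and of FECH to PPOX (exact permutation p = 0.7) overlapped between the groups.

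**Figure D2:**
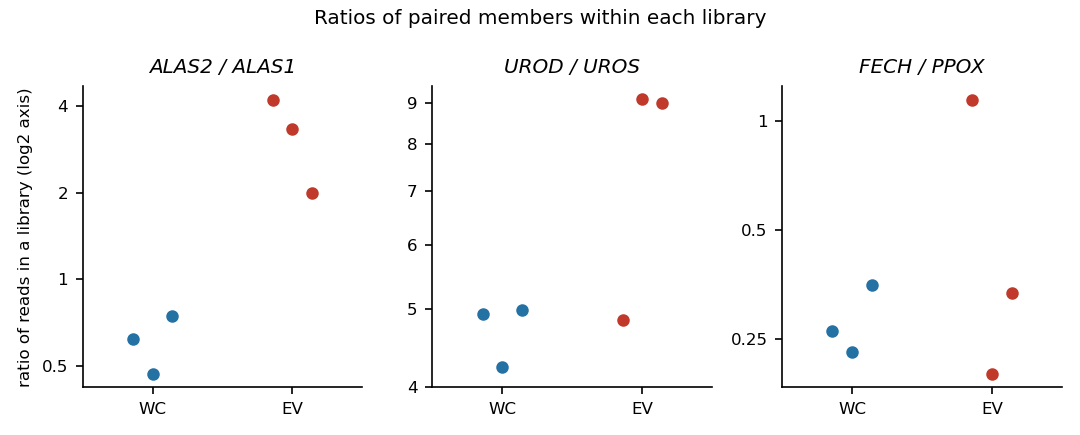
Read ratios within each library for 3 pairs of genes, on log2 axes and not corrected for length, each point a library. The ALAS2 to ALAS1 ratio lies between 0.470 and 0.747 in WC and between 2.00 and 4.22 in EVs, while the groups overlap for the other pairs.

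The cytosolic steps take 5-aminolevulinate to coproporphyrinogen. ALAD (chr9:113386312-113401290, minus strand), which joins 2 molecules of 5-aminolevulinate into porphobilinogen, had 17, 27 and 28 reads in WC and 0, 0 and 2 reads in EVs. The EV reads came from replicate 3 alone. In CPM the means were 6.82 ± 1.13 in WC and 1.49 ± 2.58 in EVs (SD, n = 3), and the log2 fold change was −2.43 ± 0.81 (SE) with an adjusted p of 0.018 by edgeR. With so few reads, the pooled EV to WC ratio was 0.178 with a 95% exact interval of 0.0212 to 0.668, which covers counting error only. DESeq2 gave ALAD an adjusted p of 0.094, and the adjusted p was 0.158 without EV replicate 1 and 0.076 without EV replicate 2.

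UROS (chr10:125784980-125823258, minus strand) closes the ring to uroporphyrinogen III. It had 32.0, 26.3 and 24.2 CPM in WC and 36.3, 27.2 and 20.1 CPM in EVs. The groups overlapped fully. Its log2 fold change was 0.09 ± 0.27 (SE) with an adjusted p of 0.81 by edgeR, and its sign turned under 7 of the 15 alternatives tried.

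UROD (chr1:45010950-45015575, plus strand), which removes carboxyl groups from uroporphyrinogen, had the most EV reads of the 9 genes, 131, 109 and 81, and 469, 445 and 424 reads in WC. In CPM these were 158, 111 and 121 in WC and 176, 247 and 181 in EVs. Every EV value lay above every WC value, though WC replicate 1 and EV replicate 1 were close, with a log2 difference of 0.16. The group means were 130 ± 24.6 and 202 ± 39.6 CPM (SD, n = 3), and the log2 fold change was 0.62 ± 0.19 (SE) with an adjusted p of 0.0080 by edgeR. This call depended on scaling and on single libraries. With scaling by totals the log2 fold change was −0.02 with an adjusted p of 0.94, DESeq2 gave an adjusted p of 0.062, and the adjusted p was 0.106 without WC replicate 2, 0.058 without WC replicate 3 and 0.097 without EV replicate 2.

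The last 3 steps lie in mitochondria, and their genes behaved differently from each other. CPOX (chr3:98579446-98593648, minus strand), which oxidises coproporphyrinogen III, had 3, 9 and 3 reads in WC and 23, 10 and 8 reads in EVs, although the WC libraries were deeper. In CPM these were 1.01, 2.25 and 0.856 in WC and 30.9, 22.7 and 17.9 in EVs, so the lowest EV value was well above the highest WC value. The log2 fold change was 4.07 ± 0.43 (SE), or 16.8-fold, with an adjusted p of 2.3e-08 by edgeR. The pooled ratio of counts was 17.5 with a 95% exact interval of 9.51 to 34.1, again for counting error only, since amplified reads are not independent molecules. The log2 fold change stayed between 3.44 and 4.56, and past the test, under all 14 alternatives in which CPOX was tested. All 14 used the same assignment of reads to genes, so they cannot show whether that assignment shaped the difference. With WC libraries thinned to EV depth CPOX did not pass the filter.

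CPOX is also the gene among the 9 that shares most exonic sequence with another gene. Its canonical mRNA, CPOX-204 of 2709 nt, shares 163 exonic bases with ENSG00000285635, an overlapping protein-coding gene on the same strand that had 0 reads in all 6 libraries. The shared bases begin 1325 bases from the 3′ end, just beyond the last exon. The study reports that reads overlapping several genes stayed unassigned as ambiguous, so a read that runs from the poly(A) tail past the last exon would not count for CPOX, while one that stops inside the last exon would. In the study's isoform table, which was built from the reads apart from the gene counts, CPOX-204 had the authors' mean normalised count of 24.4 over all libraries, close to 25.8 for TFRC-201, although CPOX had 56 gene-level reads in all and TFRC 1612. The part of this overlap in the difference between EVs and WC was not tested, and lengths of single reads were not analysed here.

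PPOX (chr1:161166056-161178013, plus strand), the next oxidase, had 33.3, 31.5 and 31.7 CPM in WC and 18.8, 34.0 and 20.1 CPM in EVs. Of the EV libraries 2 lay below all WC libraries and 1 above. Its log2 fold change was −0.45 ± 0.27 (SE) with an adjusted p of 0.18 by edgeR, and with scaling by totals it was −1.09 with an adjusted p of 0.0017.

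FECH (chr18:57544377-57586732, minus strand), which inserts iron to complete haem, had 8.76, 7.26 and 11.1 CPM in WC and 21.5, 6.80 and 6.71 CPM in EVs. EV replicate 1, with 16 of the 22 EV reads, stood above all other libraries, and the other 2 EV libraries stood below them. The log2 fold change was 0.56 ± 0.42 (SE) with an adjusted p of 0.29 by edgeR, and it was −0.44 without EV replicate 1. FECHP1, a processed pseudogene of FECH, had 0 reads in all libraries.

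TFRC (chr3:196012511-196082153, minus strand) takes up iron-loaded transferrin by endocytosis. It had the most WC reads of the 9 genes, 386, 607 and 511, and 51, 30 and 27 reads in EVs. In CPM these were 130, 152 and 146 in WC and 68.6, 68.0 and 60.4 in EVs. The EV libraries were close together and all lay below the WC libraries, with means of 65.7 ± 4.56 against 143 ± 11.3 CPM (SD, n = 3). The log2 fold change was −1.11 ± 0.19 (SE), a level 2.16-fold higher in WC, with an adjusted p of 3.5e-05 by edgeR. It stayed below 0 and past the test under all 15 alternatives, from −1.75 with scaling by totals to −0.61 with an offset for exon length.

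**Figure D3:**
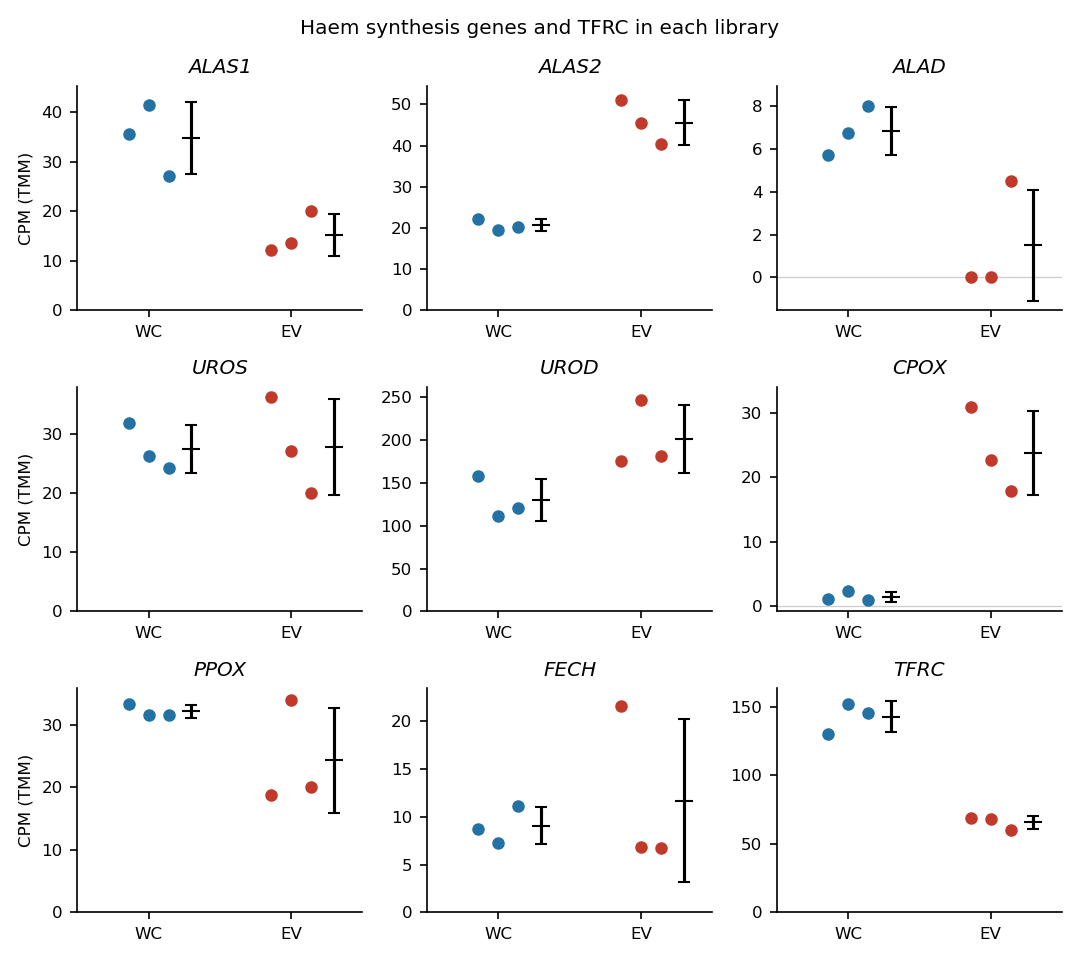
CPM with TMM normalisation in each of the 6 libraries for the 9 genes, each panel on its own linear axis, with points for replicates 1 to 3 from left to right and bars for the mean and SD. ALAS2, UROD and CPOX have every EV point above every WC point, ALAS1, ALAD and TFRC have every EV point below, and for UROD the order of the group means turns with scaling by library totals.

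The WC and EV library of 1 replicate came from 1 culture and shared a flow cell, so each replicate gives a comparison of its own. The log2 differences within replicates 1, 2 and 3 were 1.20, 1.22 and 0.99 for ALAS2, −0.92, −1.16 and −1.27 for TFRC, and 4.94, 3.33 and 4.39 for CPOX. These 3 genes thus kept their direction in all 3 replicates. ALAS1 differed by −1.56, −1.61 and −0.43, and UROD by 0.16, 1.15 and 0.58. ALAD was lower in EVs in 3 of 3 replicates, while UROS had the direction of its mean in 2 replicates, PPOX in 2 and FECH in 1.

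Levels of different genes were set side by side per length, as TPM, here the counts divided by the exon length of the canonical transcript and scaled to 1 total in every library. In WC the order was UROD (88.1 ± 12.2 TPM), TFRC (23.2 ± 3.04), UROS (16.6 ± 1.34), PPOX (15.1 ± 0.633), ALAS1 (11.9 ± 2.24), ALAS2 (8.65 ± 0.412), ALAD (1.79 ± 0.410), FECH (0.962 ± 0.255) and CPOX (0.412 ± 0.231), each with SD over 3 libraries. UROS and PPOX were the only neighbours in that order whose library ranges overlapped. The place of CPOX rests on 15 WC reads, and whether the overlap described above lowered its count was not tested. In EVs UROD again led (71.6 ± 12.8 TPM), followed by ALAS2 (10.1 ± 1.99), UROS (9.01 ± 3.33), PPOX (5.93 ± 1.91), TFRC (5.59 ± 0.767), CPOX (3.80 ± 1.36), ALAS1 (2.70 ± 0.587), FECH (0.670 ± 0.543) and ALAD (0.190 ± 0.329). From ALAS2 to ALAS1 every pair of neighbours overlapped there, as did FECH and ALAD. TFRC had rank 2 in WC and rank 5 in EVs, and ALAS2 rank 6 in WC and rank 2 in EVs. TPM of the 2 groups share no scale with the CPM above and were not compared between groups. With the union of all annotated exons as length, an alternative chosen after seeing the data, UROD stayed first in both groups, while UROS moved from rank 3 to rank 6 in WC. By that length ALAS2 had rank 3 in WC and rank 2 in EVs, and TFRC rank 4 in WC and rank 6 in EVs.

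Together the 9 genes took 0.0506% ± 0.000500 of all gene counts in WC and 0.0334% ± 0.00426 in EVs (SD, n = 3). Single libraries lay between 0.0501% and 0.0511% in WC and between 0.0286% and 0.0366% in EVs, so the groups did not overlap. Their 95% exact intervals, which cover counting error only, ran from 0.0477% to 0.0540% in WC and from 0.0244% to 0.0420% in EVs. TFRC and UROD made up 67.3% of these reads in WC and 63.9% in EVs. The shares divide by library totals alone. With that scaling the median log2 fold change of all tested genes was −0.77, against −0.13 with TMM. The median over the 9 genes was 0.09 with TMM, so the lower share in EVs cannot be read as particular to these genes.

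Transcript length moved with the difference between EVs and WC over the whole transcriptome. Across the 6759 tested protein-coding genes with a known length the Spearman correlation of exon length with log2 fold change was −0.24, as a description across genes, which are not independent replicates. The median log2 fold change was 0.24 for the 1070 genes under 1500 nt and −0.50 for the 1305 genes of 6000 nt or more. UROD (1193 nt) and UROS (1336 nt) belong to the shortest class and FECH (7689 nt by its canonical transcript) to the longest. The 5 isoform models of FECH that the study built from these reads were 2449 to 4677 nt long, so the class, the TPM and the length-adjusted value of FECH rest on an annotated length that those models do not show. With a length offset in the fit, TFRC stood at −0.61 (adjusted p of 0.0073 by edgeR), ALAD at −2.02 (adjusted p of 0.063) and FECH at 1.14 (adjusted p of 0.037). That setting moved the median of all tested genes from −0.13 to 0.12.

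**Figure D4:**
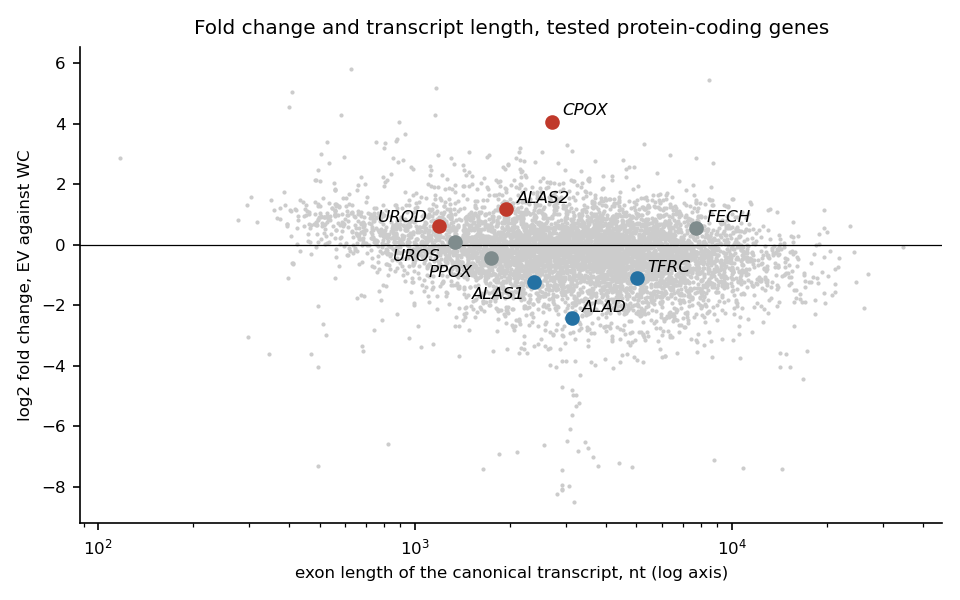
Log2 fold change between EV and WC against the exon length of the canonical transcript (log axis) for 6759 tested protein-coding genes in grey, with the 9 genes coloured as higher, lower or not called. The grey cloud slopes down with length, and CPOX and ALAD stand farthest from 0 among the 9 genes. Fitted values far below the cloud belong to genes with few or no EV reads and depend on the prior count.

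The study assembled isoforms from all reads with FLAIR, and 86 of its models belonged to the 9 genes. Of these, 44 were predicted to be productive, 33 to carry a premature stop codon and 9 to lack a start codon, and 59 were not in the annotation. UROS had 18 models, PPOX 17 and TFRC 14, while CPOX had 1. Of the 13208 isoforms with a quantity, 11 belonged to the 9 genes and none to ALAD, PPOX or FECH. The authors' mean normalised counts over all libraries give no split by group and no error. The highest of the 9 genes was an unannotated UROD model of 7 exons with a predicted premature stop codon, at 49.8, above the productive UROD-226 at 36.2. For TFRC the full-length TFRC-201, of 19 exons, stood at 25.8, and an unannotated 5-exon model without a start codon at 5.88. ALAS1-204 had 8.87 and ALAS1-205 had 4.80, ALAS2-209 had 5.52 and UROS-203 had 7.73, against a median of 7.96 over all quantified isoforms. IREs were present in 7 of the 10 ALAS2 models and in 12 of the 14 TFRC models, and both models of TFRC without them were unannotated.

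Other genes with an IRE of the same form serve as background for ALAS2 and TFRC. Of 6 genes with a 5′ UTR element 4 were tested, ALAS2 among them. FTL, the ferritin light chain, rose by 0.68 ± 0.12 on the log2 scale, from 4264 ± 712 to 6838 ± 44.7 CPM (SD, n = 3), with an adjusted p of 7.7e-05 by edgeR. SLC40A1, the iron exporter ferroportin, fell by 1.54 ± 0.39 (adjusted p of 0.0023), and FTH1, the ferritin heavy chain, had a log2 fold change of 0.78 ± 0.36 (adjusted p of 0.080). SLC40A1 passed the expression filter only through its WC libraries. Ferritin genes have many processed copies in the genome, with which reads can be shared. Of 11 genes with a 3′ UTR element 4 were tested, TFRC among them. AGO3, a component of microRNA silencing, fell by 1.93 ± 0.39 (adjusted p of 2.2e-04 by edgeR), and CDC14A at −0.75 (adjusted p of 0.27) and PDK1 at −0.31 (adjusted p of 0.61) did not pass. Log2 fold changes of both signs thus occurred among the 4 tested genes with a 5′ UTR element. All 4 tested genes with a 3′ UTR element had negative values, of which 2 passed the test. AGO3, CDC14A and PDK1 passed the expression filter only through their WC libraries, which favours negative values, so the shared sign carries little weight. The median over all tested protein-coding genes was itself negative, at −0.24, and 22.2% of them were called lower. So few genes cannot set the 2 kinds of element apart.

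The genes around the 9 were taken from lists of haem and iron biology. Of the rest of haem synthesis and transport, 14 of 20 listed genes were tested, 1 was higher, 1 lower, and the median log2 fold change was −0.06. SLC25A39, a mitochondrial glutathione carrier, rose by 0.81 ± 0.22 (adjusted p of 0.0039 by edgeR). FLVCR1, a haem and choline transporter of the plasma membrane, fell by 2.76 ± 0.53 (adjusted p of 1.3e-04), from 179 WC reads against 4 EV reads. It passed the expression filter only through its WC libraries. Of haem breakdown, 5 of 7 listed genes were tested and 2 rose, with a median of −0.03. They were the biliverdin reductases BLVRA, by 0.69 ± 0.21 (adjusted p of 0.0085), and BLVRB, by 0.42 ± 0.15 (adjusted p of 0.023). HMOX1, the inducible haem oxygenase, had no reads.

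Iron uptake, storage and export had 9 of 15 listed genes tested, of which 2 were higher and 5 lower, with a median of −1.42. All 5 lower genes passed the expression filter only through their WC libraries, which favours a lower call. TFR2, the second transferrin receptor, fell by 1.56 ± 0.36 on the log2 scale (adjusted p of 9.1e-04 by edgeR), as TFRC itself was lower. SLC11A2, which carries iron out of the endosome, fell by 2.00 ± 0.43 (adjusted p of 5.2e-04). PCBP2, an RNA-binding protein that also chaperones iron, rose by 1.58 ± 0.29 (adjusted p of 6.8e-05), in contrast to these transporters. Among genes of iron regulation, 8 of 11 were tested and 1 was called, with a median of −0.17. It was RC3H1, the RNA-binding protein roquin-1, which fell by 1.23 ± 0.28 (adjusted p of 8.8e-04).

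Iron-sulphur cluster assembly had 12 of 19 listed genes tested, 3 higher and 2 lower, with a median of 0.10. GLRX5, the mitochondrial glutaredoxin of this pathway, rose by 0.91 ± 0.22 (adjusted p of 0.0016 by edgeR), LYRM4 by 0.82 ± 0.24 (adjusted p of 0.0066) and ISCA1 by 0.82 ± 0.33 (adjusted p of 0.043). HSPA9, the mitochondrial chaperone, fell by 0.65 ± 0.19 (adjusted p of 0.0070). Apoproteins that bind haem, with the globin chaperone AHSP, had 11 of 12 tested, of which 9 rose and 1 fell, with a median of 1.28. HBG2, a fetal globin, rose by 4.30 ± 0.23 (adjusted p of 1.0e-13 by edgeR), HBZ, the embryonic zeta globin, by 3.20 ± 0.45 (adjusted p of 2.3e-06), and AHSP by 2.15 ± 0.49 (adjusted p of 8.0e-04). HBB, the adult beta globin, had 2 WC and 23 EV reads and a log2 fold change of 5.82 ± 0.73 (adjusted p of 4.2e-07). HBB, HBZ and AHSP passed the expression filter only through their EV libraries, which favours a higher call. HBG1 and HBG2, and likewise HBA1 and HBA2, are nearly identical copies, so the split of reads between them is uncertain.

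Transcription factors of erythroid haem genes had 8 of 9 tested, 3 higher and 2 lower, with a median of −0.10. LMO2 rose by 2.88 ± 0.43 (adjusted p of 5.0e-06 by edgeR), TAL1 by 2.25 ± 0.37 (adjusted p of 2.3e-05) and NFE2L2, a regulator of the oxidative stress response, by 1.31 ± 0.30 (adjusted p of 8.0e-04). LDB1, which shares erythroid complexes with LMO2 and TAL1, fell by 0.89 ± 0.33 (adjusted p of 0.033). LMO2 and TAL1 passed the expression filter only through their EV libraries, which favours a higher call. Across the 7 lists, the share of genes called differed from one list to the next, and no test compared a list with the 22.8% and 21.4% of all tested genes called.

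The tested protein-coding genes with the pattern most like each of the 9 over the 6 libraries were found by the root mean square difference of centred log2 CPM among 6767 others. For ALAS2 they were GSTP1 (0.07 on the log2 scale) and RPL29 (0.08), and for ALAS1 they were ZW10 (0.08) and ING4 (0.14). TFRC lay nearest PPIP5K2 (0.06) and CSTF1 (0.07), UROD nearest ABI2 (0.07) and MPHOSPH10 (0.10), and UROS nearest MSMO1 (0.06) and PSMD13 (0.07). PPOX lay nearest RUVBL1 (0.08) and MTRES1 (0.09), FECH nearest RELA (0.10) and STRADB (0.14), and ALAD nearest EIF2AK3 (0.19) and OR8A1 (0.20). CPOX had the most distant neighbours, RPSAP58 (0.36) and RPS3A (0.39), with log2 fold changes of 3.20 and 3.43. No other of the 9 genes was among the nearest neighbours of any of them. With only 2 neighbours kept out of 6767 genes, this does not show whether the 9 genes share a pattern.

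**Figure D5:**
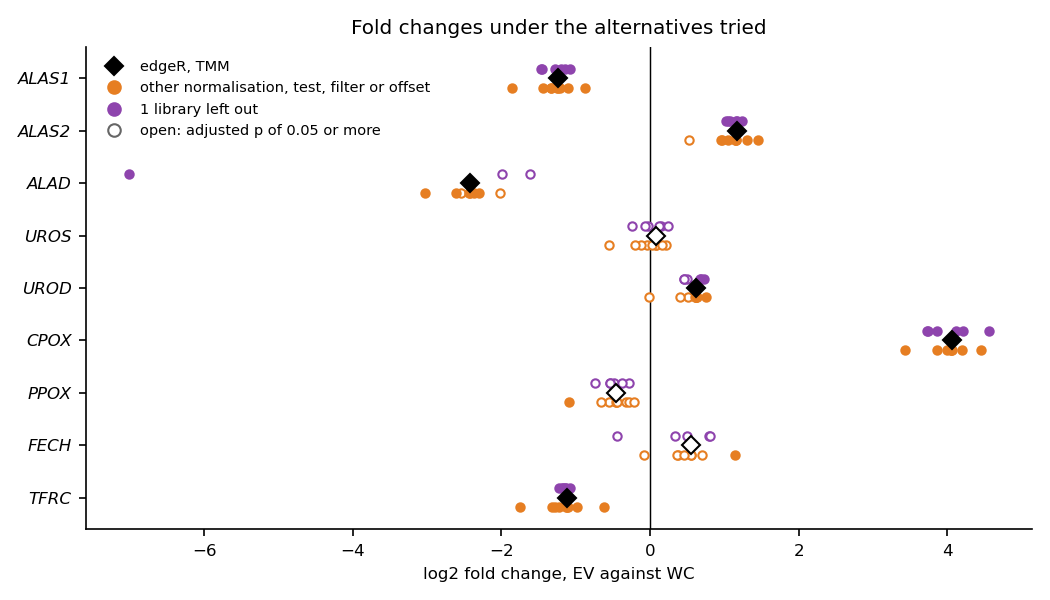
Log2 fold changes of the 9 genes with edgeR and TMM normalisation (diamonds), under other normalisations, tests, filters and offsets (orange) and with 1 library left out (purple), with open symbols where the adjusted p was 0.05 or more. TFRC, ALAS1 and CPOX keep filled symbols throughout, UROD spans −0.02 to 0.76, and UROS and FECH lie on both sides of 0. The ALAD point at −7.01 leaves out EV replicate 3, after which EVs had no ALAD read, so that value depends on the prior count.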

How the data were processed

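RNA of 3 WC and 3 EV replicates of K562 cells was sequenced as PCR-amplified cDNA on nanopores. The authors called bases with Guppy, mapped reads to hg38 (GRCh38) with minimap2 in spliced mode, and ran featureCounts in long-read mode on GENCODE v41 to make the deposited raw gene counts. The deposited signal values are the authors' counts after division by size factors, used here as a check and, for isoforms, as means over all libraries. The deposited isoform models are the authors' FLAIR output, whose score column was not interpreted. The authors' fold changes and p-values were not used.

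The members and lists were chosen with earlier results of these data known. Of 68247 lines, 68201 gene IDs were kept, since 46 stand on 2 lines. Lengths and UTRs came from GENCODE v44. The test was the robust quasi-likelihood test of edgeR 4.0.16 under R 4.3.3, with TMM, filterByExpr and Benjamini-Hochberg adjustment over 8716 genes, and was checked on simulated data. The standard error is the log2 fold change divided by the root of the F statistic. CPM used TMM library sizes, whose factors spanned 1.20 to 1.30 for WC and 0.769 to 0.844 for EVs. Alternatives were DESeq2 1.42.0, RLE and total-count scaling, protein-coding genes alone, other filters, a replicate block, thinning of WC libraries, an exon length offset and leaving out each library. The study states that same-numbered libraries shared a culture and a flow cell, and after removal of group means they correlated at 0.062, 0.024 and 0.004. Pairs of WC and EV libraries with different numbers correlated at −0.049 to 0.034. Named genes were the 9 members, per list up to 4 called genes with the largest change, per member the 2 most similar genes, near copies and the 2 isoforms with the highest mean. Other software was Python 3.11.15, scipy 1.17.1, pandas 2.3.3 and numpy 2.4.6. One gene of the lists is not reported here.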

Additional observations from a re-analysis of the deposited data

How the results depend on the processing

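Calls for TFRC and ALAS1 held under 15 of 15 alternatives and for CPOX under 14 of 14, and ALAS2 lost its call under 1 of 15, scaling by library totals. That scaling gave 1 higher and 4 lower members, 1083 higher and 4436 lower genes, and turned UROS (−0.55), UROD (−0.015) and FECH (−0.078) on the log2 scale. UROS also turned with DESeq2 (−0.043), no filter (−0.12), WC thinned to EV depth (−0.20), and without WC replicate 2, WC replicate 3 or EV replicate 1, and FECH without EV replicate 1. With 1 library left out, UROS ranged from −0.24 to 0.25 and FECH from −0.44 to 0.80. With no filter UROD had an adjusted p of 0.13 by edgeR. Genes called higher and lower were 1179 and 1135 among protein-coding genes alone and 1286 and 1215 after thinning, where ALAD, CPOX and FECH were not tested. The cause of these shifts was not tested. The share of counts was 0.0904% in WC and 0.0696% in EVs of protein-coding counts. The replicate block, which pairs the libraries of 1 culture, gave 1890 and 1693 genes and changed no call of a member. ALAD was not tested without any 1 WC library, nor FECH without WC replicate 3. Depth limits ALAD and FECH most in EVs, with 2 and 22 reads, and CPOX in WC, with 15.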
